A study of Mus musculus with 12 samples.

Results

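Bone marrow-derived mast cells (BMMCs) that received control siRNA make up 3 of the 12 samples in the series, chosen by the label siGLO, and their transcript profile after activation is described here across 734 endogenous probes. The BMMCs came from C57BL/6 mice aged 6 to 8 weeks, and were grown from bone marrow in IL-3 for at least 4 weeks. They were electroporated with siGLO, a fluorescent siRNA that targets no gene, and 48 h later were activated for 2 h with IgE against dinitrophenyl (DNP) and its antigen HSA-DNP. In the other 3 groups of the study, siRNAs against Regnase-1, Regnase-3 or both were used to ask which immune transcripts these RNA-binding proteins restrain. Unstimulated cells were not analysed here, so no value below separates what activation induced from what resting cells already contained. The libraries are named by replicate number. The series describes cells of 3 mice, and each replicate is taken to be the cells of 1 mouse, although the sample titles give no more than the number. The headers of the raw counts add a further code for each replicate, whose meaning is not stated in these sources.

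Mast cells are tissue-resident effector cells that carry the high-affinity IgE receptor on their surface. When antigen crosslinks the IgE bound to it, they release preformed granule contents such as proteases and histamine, make lipid mediators from arachidonic acid, and transcribe cytokine and chemokine genes. BMMCs grown in IL-3 are a widely used model of these cells. They resemble immature mucosal-type mast cells and do not stand for the mast cells of every tissue.

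Transcripts were measured with the nCounter Myeloid Innate Immunity Panel, in which 50 ng of RNA is hybridised to barcoded probes and the bound barcodes are counted singly, with no amplification step. With 1 probe per transcript no length correction applies, but probes bind with different efficiency, so the order of levels between genes is approximate. Each library held 701600, 447310 and 588867 counts in replicates 1, 2 and 3, of which 95.2 ± 0.131% fell on endogenous probes (mean ± SD, n = 3). A probe was called above background where its count passed a floor, the mean plus 2 SD of the 8 negative control probes of the same library. This floor was 24.2, 20.1 and 15.3 counts in replicates 1, 2 and 3. The lowest count in each library was 1.

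Replicate 2 stood apart from the other 2 libraries. It had the lowest total and the lowest positive controls, with 6041 counts of the most abundant positive control against 12272 and 8799 in replicates 1 and 3. Across the 345 probes above the floor in all 3 libraries, log2 levels of replicate 2 correlated at 0.949 with replicate 1 and 0.945 with replicate 3, and those of replicates 1 and 3 at 0.988 (Pearson's r across probes, which are not independent). No pair was a repeat deposit of 1 library, since chi-square over its degrees of freedom, from the counts of these probes, was 22.7 for replicates 1 and 3, 80.3 for 1 and 2 and 102 for 2 and 3. Values are therefore given per library, or with and without replicate 2 where they turn on it.

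The profile was concentrated in few transcripts. Of 734 endogenous probes, 345 (47%) were above the floor in all 3 libraries, and 243 (33.1%) were at or below it in all 3. The other 146 (19.9%) passed it in 1 or 2 libraries. The 345 probes held 99.0% of endogenous counts and the 243 probes 0.411%. By library, 417, 369 and 465 probes passed in replicates 1, 2 and 3. Replicate 2 had the fewest, and its endogenous total of 425825 counts was the lowest. Without replicate 2, 396 probes were above the floor in both remaining libraries and 248 at or below it in both.

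**Figure D1:**
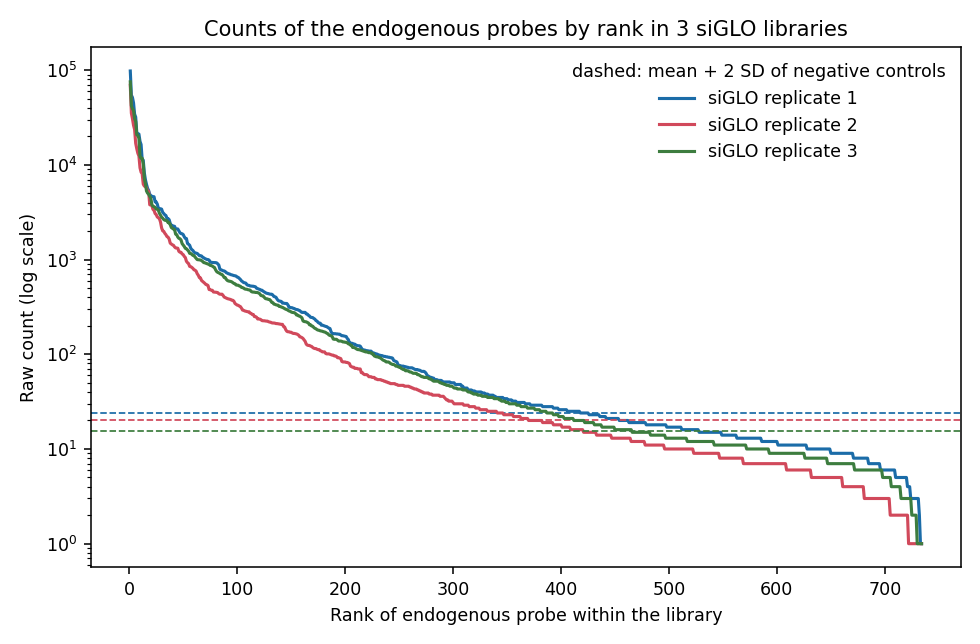
Raw counts of the endogenous probes (log scale) against their rank within each siGLO library, with 1 curve per replicate and dashed lines at the floors of 24.2, 20.1 and 15.3 counts. The curves cross their floors at 417, 369 and 465 probes in replicates 1, 2 and 3.

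The 10 most abundant probes took 58.9 ± 0.741% of endogenous counts (SD, n = 3), 7 probes were enough to reach 50%, and 77 probes reached 90%. Cpa3, which encodes the granule protease carboxypeptidase A3, came first with 98124, 69323 and 75376 counts in replicates 1, 2 and 3, or 14.8 ± 1.43% of endogenous counts. It led in each library. The chemokines Ccl3 (7.81 ± 0.709%) and Ccl2 (7.21 ± 0.534%) came next, followed by Cma1 (6.82 ± 0.676%), the granule chymase. Fcer1a, the IgE-binding alpha chain of the receptor, was at rank 5 with 34350, 23669 and 30742 counts (5.39 ± 0.216%), at the same rank in each library. Ccl1, a chemokine ligand of Ccr8, followed at 4.64 ± 0.599%. Then came Il13 (3.36 ± 0.148%) and Il6 (3.25 ± 0.375%), both effector cytokines, Il1rl1 (3.06 ± 0.788%), the receptor for the alarmin IL-33, and Ccl4 (2.56 ± 0.517%).

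The order within this group was only partly fixed. Of the 9 neighbouring pairs among the 10, 5 were ordered alike in the 3 libraries, and in 4 the ranges of the shares did not overlap. These 4 were Cpa3 over Ccl3, Cma1 over Fcer1a, Fcer1a over Ccl1 and Ccl1 over Il13. Neighbours among Ccl3, Ccl2 and Cma1 overlapped in share, as did those among Il13, Il6, Il1rl1 and Ccl4. Within these 2 runs Ccl3 was above Ccl2 in each library, and the order of the other neighbours changed between libraries. 9 of the probes were among the top 10 of every library.

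Ranks 11 to 25 added chemokine Ccl7 (2.24 ± 0.366%), the transcriptional regulator Id2 (1.75 ± 0.404%), the proprotein convertase Furin (1.59 ± 0.312%), and the cytokines Csf2 (1.14 ± 0.660%), Csf1 (0.908 ± 0.0231%), Tnf (0.826 ± 0.501%), Osm (0.802 ± 0.583%) and Lif (0.799 ± 0.483%). Csf1, the macrophage growth factor, varied little in share, whereas the SDs of Csf2, Tnf, Osm and Lif were 57.9% to 72.7% of their means. Without replicate 2 the mean share was 0.763% for Csf2, 0.536% for Tnf, 0.466% for Osm and 0.521% for Lif. Tnf, Osm and Lif ranked 27 to 38 in replicates 1 and 3, so their place among the first 25 by share of counts rested on replicate 2. In the log2 values that the authors deposited, Tnf ranked 20, Lif 24 and Osm 25. The remainder were Egr3, an early-response transcription factor, Sqstm1, an autophagy adaptor, Vwa5a, the lysosomal protease Ctsd, the early-response gene Ier3, the leukotriene enzyme Alox5 and the tryptase Tpsb2. Together the 25 probes held 74.9 ± 1.24% of endogenous counts.

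**Figure D2:**
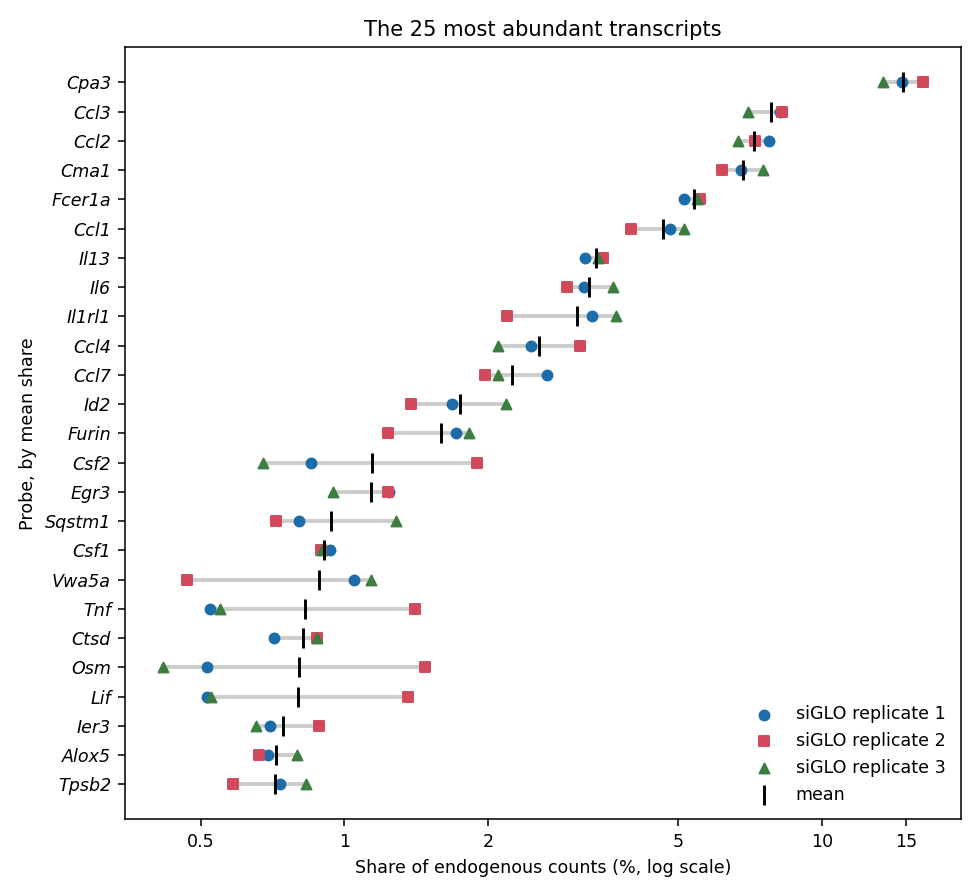
Share of endogenous counts (%, log scale) of the 25 most abundant transcripts in siGLO replicates 1, 2 and 3, with the mean as a vertical tick and the range as a grey bar. Cpa3 leads at 14.8% on average, and replicate 2 lies to the right of the other replicates for Csf2, Tnf, Osm and Lif and to the left for Vwa5a.

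Transcripts that identify mast cells were abundant. The 5 mast cell markers were above the floor in all 3 libraries and together took 21.0 ± 1.30% of endogenous counts, most of it from Cpa3 and Fcer1a. Ms4a2, the signal-amplifying beta chain of the IgE receptor, had 2286, 928 and 1662 counts in replicates 1, 2 and 3. Hdc, the enzyme that makes histamine, had 3162, 1129 and 2651 counts. Kit, the receptor for stem cell factor, had 931, 263 and 696 counts, the lowest of the 5 markers in each library. Replicate 2 was lowest for Ms4a2, Hdc and Kit in counts and also in counts per 1000000 endogenous counts (CPM). For Cpa3 and Fcer1a it was lowest in counts but highest in share. Cpa3 took 14.7%, 16.3% and 13.4% of endogenous counts in replicates 1, 2 and 3, and Fcer1a 5.15%, 5.56% and 5.48%. The 5 markers summed to 20.8%, 22.4% and 19.8%.

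Promoter sequences of 3 of these markers and of Il13 show the bases next to their start sites, since the mast cell transcription factors Gata1 and Gata2 were also measured (Gata2 at 1478, 808 and 1108 counts, Gata1 at 163, 46 and 144 in replicates 1, 2 and 3). The windows run from 250 bases before to 50 bases after the start in RefSeq (GRCm38.p6) and are printed 5′ to 3′ on the strand of the gene. Capitals mark AGATAA or TGATAA, 2 of the letter forms that GATA factors bind, or their reverse complements. Fcer1a (chr1:173227180-173227479, minus strand), Ms4a2 (chr19:11623670-11623969, minus strand), Cpa3 (chr3:20242132-20242431, minus strand) and Il13 (chr11:53634653-53634952, minus strand) read as follows.
Fcer1a: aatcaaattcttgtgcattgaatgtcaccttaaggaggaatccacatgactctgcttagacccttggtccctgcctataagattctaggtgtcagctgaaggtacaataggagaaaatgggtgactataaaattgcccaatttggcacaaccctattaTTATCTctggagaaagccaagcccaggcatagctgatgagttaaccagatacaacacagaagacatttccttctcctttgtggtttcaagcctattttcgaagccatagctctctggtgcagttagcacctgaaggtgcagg
Ms4a2: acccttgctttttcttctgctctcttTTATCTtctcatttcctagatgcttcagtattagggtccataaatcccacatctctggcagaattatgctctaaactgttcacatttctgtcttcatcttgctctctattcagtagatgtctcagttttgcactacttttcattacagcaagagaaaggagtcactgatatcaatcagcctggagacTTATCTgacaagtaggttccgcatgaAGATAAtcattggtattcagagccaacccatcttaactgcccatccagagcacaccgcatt
Cpa3: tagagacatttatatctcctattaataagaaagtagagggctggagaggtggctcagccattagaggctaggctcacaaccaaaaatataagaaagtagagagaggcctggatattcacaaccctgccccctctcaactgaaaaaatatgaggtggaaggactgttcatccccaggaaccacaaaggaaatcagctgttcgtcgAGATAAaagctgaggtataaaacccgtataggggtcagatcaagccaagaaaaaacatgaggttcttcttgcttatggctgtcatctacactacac
Il13: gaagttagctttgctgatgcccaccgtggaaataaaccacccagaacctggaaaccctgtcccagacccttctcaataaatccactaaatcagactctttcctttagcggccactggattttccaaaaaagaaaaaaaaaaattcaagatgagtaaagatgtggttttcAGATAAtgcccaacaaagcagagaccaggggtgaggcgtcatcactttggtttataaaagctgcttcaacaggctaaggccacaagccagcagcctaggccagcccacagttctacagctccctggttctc

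The match lay 46 bases before the start in Cpa3, 92 in Fcer1a and 81 in Il13, and Ms4a2 had 3 matches at 224, 37 and 11 bases before it. The promoters printed all hold a match, whereas Kit, Hdc, Ccl3 and Cma1 had none to these forms in this window. Of the 10 most abundant transcripts, 8 had a promoter in the table used, and 6 of these held a match (Cpa3, Fcer1a, Ccl1, Il13, Il6 and Il1rl1). The share was lower among the 25 most abundant, at 7 of 18 (38.9%), and was 19.0% over all RefSeq promoters of this length. It was 14.6% (38 of 261) among the panel genes above the floor in all 3 libraries and 19.9% (37 of 186) among those at or below it in all 3, so the share in the first 10 was not seen over the detected probes as a whole. When AGATAG and TGATAG were searched too, Hdc and Cma1 gained a match and Kit and Ccl3 still had none. Then 7 of the 8 promoters held a match, against 9 of 18 (50%) among the 25 most abundant and 30.2% of all promoters. 5 other motifs were searched on both strands in the same windows. Of the same 8 promoters, 4 held GGAAAA (NFAT), against 23.6% of all promoters, and 3 held TATAAA (the TATA box), against 14.2%. TGANTCA (AP-1), TGACGT (CRE) and GGGANTTTC (NF-kB) were each in 1 of the 8, against 7.93%, 7.64% and 1.15% of all promoters. The motifs were chosen with the levels already known, and a match is a description of letters, not of a bound site.

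IgE receptor signalling and granule genes were detected nearly throughout. Of 12 IgE receptor and proximal signalling genes, 11 were above the floor in all 3 libraries, as were 7 of 7 granule and amine synthesis genes, against 47% of all probes. These lists and those below were written with earlier results of these data known, so their shares describe the genes listed only. The median count was 191.5 in the signalling list and 2314 in the granule list, against 27.7 over all 734 probes. After Fcer1a and Ms4a2, the adaptor Lat2 (1249, 575 and 1160 counts) and the kinase Btk (1060, 402 and 977 counts) were the most abundant of this list, ahead of Kit in each library. Syk, the kinase recruited by the receptor, had 50, 23 and 52 counts. That was above the floor in each library but close to it in replicate 2. The granule genes took 22.8 ± 0.495% of endogenous counts, and after Cpa3 and Cma1 the tryptase Tpsb2 led with 4887, 2491 and 4663 counts. Ctsg, a serine protease, had 524, 147 and 476 counts.

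Of 10 mast cell transcription factors and growth or alarmin receptors, 9 were above the floor in all 3 libraries (90%, against 47% of all probes). Il1rl1 was by far the most abundant (21966, 9312 and 20841 counts). The stem and progenitor antigen Cd34 had 2114, 1649 and 2573 counts. Adora3, an adenosine receptor, had 1670, 1362 and 1302 counts. Csf2ra, the alpha chain of the GM-CSF receptor, was at or below the floor in all 3 (12, 8 and 12 counts).

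Genes of the leukotriene and prostaglandin pathways passed the floor about as often as the panel as a whole. Of 16 eicosanoid enzymes and receptors, 7 passed in all 3 libraries (43.8%, against 47% of all probes), 3 in 1 or 2 and 6 in none. Alox5 (4620, 2820 and 4476 counts) and its activating protein Alox5ap (2109, 1319 and 2100) led the list. The cyclooxygenases Ptgs2 (690, 391 and 454 counts) and Ptgs1 (405, 283 and 617) and the leukotriene A4 hydrolase Lta4h (433, 270 and 320) followed. The prostaglandin D2 synthase Hpgds also passed, with 108, 48 and 112 counts, as did Ltb4r1, a leukotriene B4 receptor (53, 36 and 27). A second prostaglandin D synthase, Ptgds, passed in 1 library (16, 23 and 15 counts). The lipoxygenase Alox15 (12, 7 and 9 counts) and the prostaglandin-degrading enzyme Hpgd (10, 10 and 12) were at or below the floor in all 3. Cysltr1, a cysteinyl leukotriene receptor, Ptger2, a prostaglandin E2 receptor, and Ptgdr2, a prostaglandin D2 receptor, were also at or below it.

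Chemokines took the largest share of any list, 24.7 ± 1.45% of endogenous counts, from few of its members. Of 34 chemokine ligand probes, 13 were above the floor in all 3 libraries, 7 in 1 or 2 and 14 in none, a lower share than over all probes (38.2% against 47%). The list median was 16.8 counts. Ccl3, Ccl2, Ccl1, Ccl4 and Ccl7 made up nearly all of the sum. The CXC chemokines that recruit neutrophils were low, with 41, 44 and 34 counts of Cxcl2, and Cxcl1, Cxcl3 and Cxcl5 at or below the floor in all 3. Cxcl9 and Cxcl10, chemokines known to be induced by interferon, were also at or below it.

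The abundant chemokines lay in 2 gene clusters on chromosome 11, beside genes at the floor. In RefSeq order the first cluster on the panel read Ccl2, Ccl7, Ccl11, Ccl12, Ccl8 and Ccl1. Ccl2 at one end had 51558, 30829 and 37400 counts in replicates 1, 2 and 3 and Ccl1 at the other 32017, 16921 and 28845. Between them Ccl11, an eosinophil-recruiting chemokine, was at or below the floor in all 3 libraries, Ccl8 passed in 1 (19, 12 and 16 counts) and Ccl12 had 164, 44 and 63 counts. The second cluster read Ccl5, Ccl9, Ccl6, Ccl3 and Ccl4. Ccl3 had 54475, 35197 and 39246 counts and Ccl4 had 16422, 13273 and 11772, whereas Ccl5 had 92, 52 and 36 and Ccl6 had 30, 5 and 3. The type 2 cytokine genes of the same chromosome were also unequal, with 21306, 14837 and 19028 counts of Il13, 1320, 1749 and 956 of Il4 and 13, 7 and 9 of Il5. The Il5 counts were at or below the floor in all 3. Likewise on chromosome 17 Tnf had 3491, 5980 and 3086 counts, while its neighbour Lta passed in 2 libraries (9, 82 and 16 counts) and Ltb in none.

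**Figure D3:**
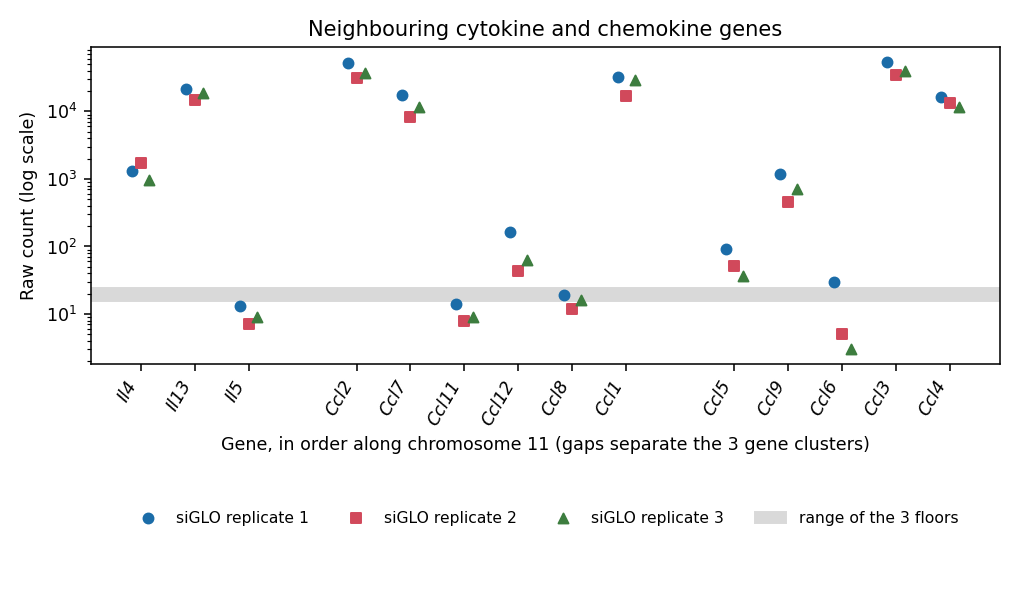
Raw counts (log scale) of cytokine and chemokine genes in their order along chromosome 11, in siGLO replicates 1, 2 and 3, with the range of the 3 floors shaded. Ccl2, Ccl7, Ccl1, Ccl3, Ccl4 and Il13 stand far above the floors in each library (the lowest of them, Ccl7 in replicate 2, has 8379 counts), beside Il5, Ccl11, Ccl8 and Ccl6 at or near the floors.

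Cytokines and growth factors held 13.04 ± 2.44% of endogenous counts, and 25 of 53 were above the floor in all 3 libraries (47.2%, against 47% of all probes), with 12 in 1 or 2 and 16 in none. The list median was 37 counts. Il13 and Il6 led, followed by Csf2, Csf1 and Tnf. Il3, the growth factor in which the cells were cultured, had 2015, 3319 and 916 counts. Tgfb1 had 3059, 1492 and 2457 counts and Hbegf, a ligand of the EGF receptor, 1200, 1328 and 931. Il2 had 596, 533 and 220 counts, and Il1b 163, 83 and 186. Il10 (9, 4 and 3 counts), Il12a, Il12b, Il18 and Il22 were at or below the floor in all 3.

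Receptors for several of these ligands were at or below the floor in the same libraries. Ccr1, a receptor for Ccl3, had 527, 372 and 297 counts, but Ccr2, a receptor for Ccl2, had 11, 17 and 14. Ccr8, the receptor for Ccl1, passed in 1 library (16, 14 and 16 counts). The TNF receptors Tnfrsf1a (10, 1 and 10 counts) and Tnfrsf1b (12, 2 and 10 counts), the IL-6 receptor Il6ra (8, 7 and 11 counts) and the M-CSF receptor Csf1r (14, 7 and 10 counts) were at or below the floor in all 3. Il3ra (165, 137 and 110 counts) and Il4ra (344, 166 and 331 counts) were above it. Of the 18 chemokine receptor probes, 7 passed in all 3 libraries (38.9%, against 47% of all probes), 3 in 1 or 2 and 8 in none. A count at the floor was not detectable at this depth and does not show that the transcript is absent.

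The early activation genes listed, which many cells transcribe within hours of a stimulus, were detected more often than the panel as a whole. Of 25, 23 were above the floor in all 3 libraries (92%, against 47% of all probes) and the other 2, Fosl1 and Klf4, passed in 2. Egr3 led with 8250, 5247 and 5311 counts, followed by Ier3 (4664, 3759 and 3659) and the nuclear receptor Nr4a1 (2247, 2165 and 1314). Nfil3 and Atf3, both transcription factors, had 935, 683 and 888 and 792, 848 and 733 counts. The list median was 393.7 counts and its summed share 3.74 ± 0.422%. Of 18 NF-kB signalling and feedback genes, 14 passed in all 3 libraries (77.8%). Malt1, a protease of the pathway, had 1162, 641 and 1000 counts, and the subunit Nfkb1 had 1133, 481 and 1164. Nfkbiz, a nuclear regulator of NF-kB target genes, had 585, 431 and 591 counts.

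Antigen presentation and interferon genes gave a mixed picture. The class I genes H2-D1 (1840, 1223 and 1376 counts) and H2-K1 (929, 645 and 780) and the proteasome activator Psme2 (1046, 709 and 1064) led the 22 MHC and antigen processing genes, of which 12 passed in all 3 libraries (54.5%, against 47% of all probes). The class II gene H2-Aa (3, 10 and 12 counts) was at or below the floor in all 3, H2-Ab1 and H2-Eb1 passed in 2 and the invariant chain Cd74 in 1 (13, 10 and 17 counts). Of 19 interferon genes, 4 passed in all 3 libraries (21.1%). They included Mx1, an antiviral GTPase (86, 22 and 80 counts), and Ifnar2, a chain of the type I interferon receptor (73, 64 and 67). Ifnb1 (5, 5 and 6 counts), Ifng (22, 11 and 9) and Irf7 (9, 5 and 6) were at or below the floor in all 3.

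Pattern recognition receptors passed the floor less often than the panel as a whole. Of 30 probes, 7 were above the floor in all 3 libraries (23.3%, against 47% of all probes), 8 in 1 or 2 and 15 in none. Nlrp3, an inflammasome sensor, led with 224, 115 and 292 counts. Tlr4, the receptor for bacterial lipopolysaccharide, had 131, 20 and 135 counts. It was far above the floor in replicates 1 and 3 and just under it in replicate 2. Tlr2 (15, 2 and 13 counts), Cd14, Nod1 and Nod2 were at or below the floor in all 3. Among Fc gamma receptors and immune adaptors, 7 of 10 passed in all 3 libraries (70%). The signalling adaptor Tyrobp led with 2721, 2766 and 2740 counts, followed by Laptm5 (2925, 1194 and 2604) and Cd244 (1675, 781 and 1835). Of 18 integrin and adhesion genes, 6 passed in all 3 (33.3%), with Cd47 (761, 397 and 556 counts) and Itgb1 (678, 329 and 675) the most abundant. Of 10 cell cycle genes, 7 passed in all 3 (70%), led by Top2a (347, 250 and 276 counts).

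Defining markers of other blood cells were mostly at background. Of 65 probes that mark macrophages and monocytes, neutrophils, eosinophils, dendritic cells or lymphocytes, 9 were above the floor in all 3 libraries, 15 in 1 or 2 and 41 in none. By contrast, 33.1% of all probes were in none. The 65 probes summed to 0.729 ± 0.202% of endogenous counts, and Ly6c1 (2107, 2990 and 2808 counts), a surface antigen used to mark monocytes, made up most of that. Without Ly6c1 the macrophage and monocyte list summed to 0.0661 ± 0.00927%, against 0.572 ± 0.202% with it. In a bulk sample, few cells of a type and little RNA per cell cannot be told apart.

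Of 21 macrophage and monocyte markers, 2 passed in all 3 libraries (9.52%, against 47% of all probes). They were Ly6c1 and Cx3cr1 (111, 96 and 135 counts). A further 5 passed in 1 or 2 libraries and 14 in none. Csf1r, Mertk, Mpeg1 (6, 2 and 3 counts), C1qa, Cd14, Marco and Siglec1 were at or below the floor in all 3. Adgre1, which encodes F4/80, passed in 2 (24, 45 and 26 counts). Mrc1 (24, 21 and 29), Itgam (25, 26 and 11) and Fcgr1 (17, 23 and 21) also passed in 2. The macrophage activation genes Arg1 (13, 14 and 6 counts), Nos2 (15, 7 and 8), Acod1 and Retnla were at or below the floor in all 3. Of 12 neutrophil markers, 2 passed in all 3 libraries (16.7%), 2 in 1 or 2 and 8 in none. S100a8 (6, 5 and 9 counts), S100a9, Elane, Mpo and Ly6g were at or below the floor in all 3. The gelatinase Mmp9 (97, 115 and 91 counts) and Fcnb (35, 21 and 34) passed in all 3, and Camp in 2 (13, 29 and 25). Of 10 eosinophil markers, Siglecf (246, 49 and 134 counts) and Ccr3 (63, 49 and 32) passed in all 3 (20%), 4 in 1 or 2 and 4 in none. Among the granule genes, Rnase2a (24, 22 and 19 counts) and Rnase2b (25, 9 and 24) passed in 2 libraries. Epx passed in replicate 1 (27 counts) and Prg2 in replicate 3 (16 counts), and Prg3, Ear3 and Ear6 in none. No dendritic cell marker of 8 passed in all 3, against 47% of all probes. Clec9a (5, 3 and 4 counts), Flt3, Xcr1 and Itgax were at or below the floor. Of 14 lymphocyte and NK cell markers, Cxcr5 (51, 61 and 57 counts), Nkg7 (66, 47 and 48) and Pdcd1 (25, 24 and 30) passed in all 3 (21.4%). The B cell gene Ms4a1 did not pass in any. Of 23 connective tissue, endothelial and muscle genes, 4 passed in all 3 (17.4%, against 47% of all probes). They were led by the cadherin Cdh2 (498, 224 and 481 counts) and the collagen-crosslinking enzyme Loxl2 (117, 73 and 106).

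**Figure D4:**
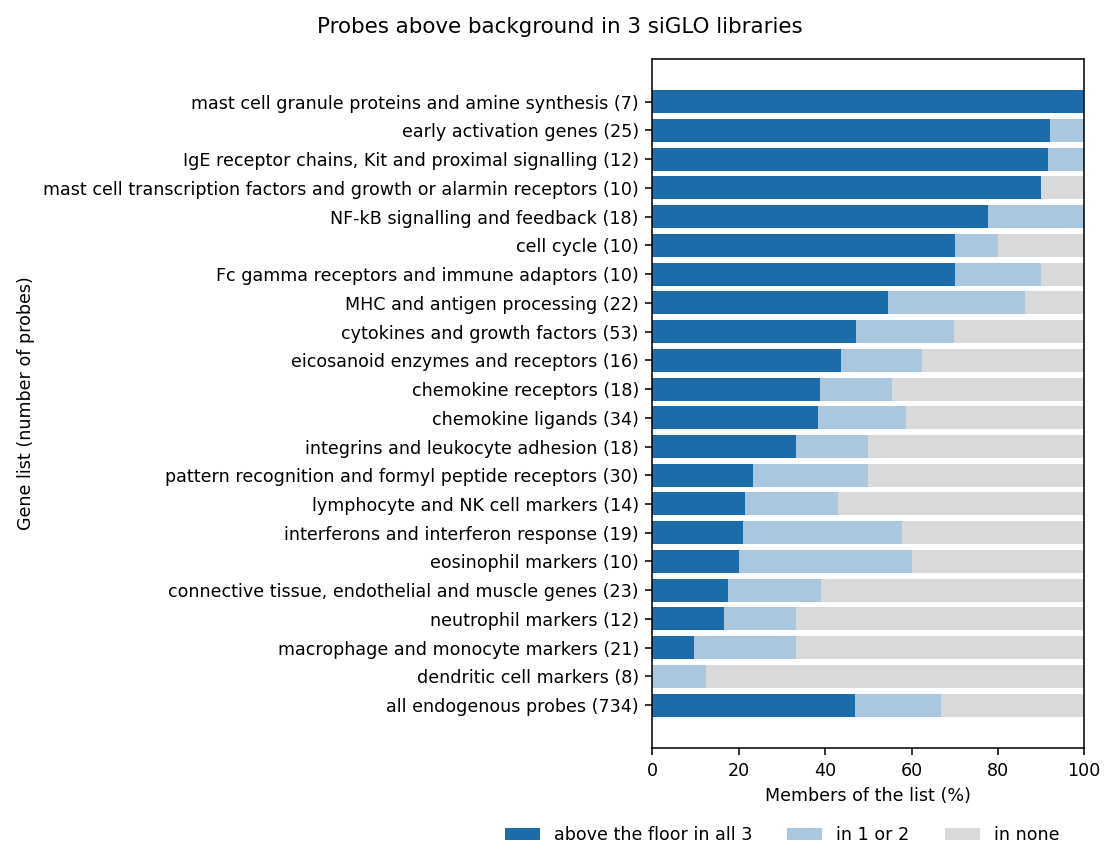
Members of each of 21 gene lists (%) whose count was above the floor in all 3 siGLO libraries (dark blue), in 1 or 2 (light blue) or in none (grey), with all 734 endogenous probes in the lowest row. Granule genes stand at 7 of 7 and dendritic cell markers at 0 of 8 in all 3, against 47% of all probes.

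The boundary of the background call was a continuum. Just inside it, Id3 (20, 20 and 11 counts), Tlr6, Tgfbr3, Cxcl3 and Itga4 reached between 0.978 and 0.996 of the floor in their highest library. Just outside it, Ltb4r2 (25, 20 and 14 counts), Ikbke, Col3a1, Vcam1 and Ccl28 each reached 1.03 times the floor, all through 25 counts in replicate 1. Among the 20 reference genes, 14 were above the floor in all 3 libraries, led by Rpl19 (6806, 5079 and 5482 counts), and Tbp was at or below it in all 3 (24, 1 and 1 counts).

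Levels of most detected transcripts differed between libraries by more than counting error. On CPM, the median coefficient of variation (CV, SD over mean) of the 345 probes was 24.6%, against 8.17% from counting alone, and 99 of them (28.7%) had a range of at least 2-fold. This range turned on replicate 2. Without that library the median CV was 12.3% and 6 probes had a 2-fold range. In replicate 2, 15 of the 345 probes (4.35%) were at least 2 times both other libraries and 29 (8.41%) were at most 1/2 of both. The same counts were 1 and 1 for replicate 1, and 0 and 1 for replicate 3. Replicate 2 was the highest library for 118 probes (34.2%) and the lowest for 173 (50.1%). These splits were made after replicate 2 had been seen to stand apart, and with 1 library per mouse they have no test. Mouse, culture and library cannot be told apart.

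**Figure D5:**
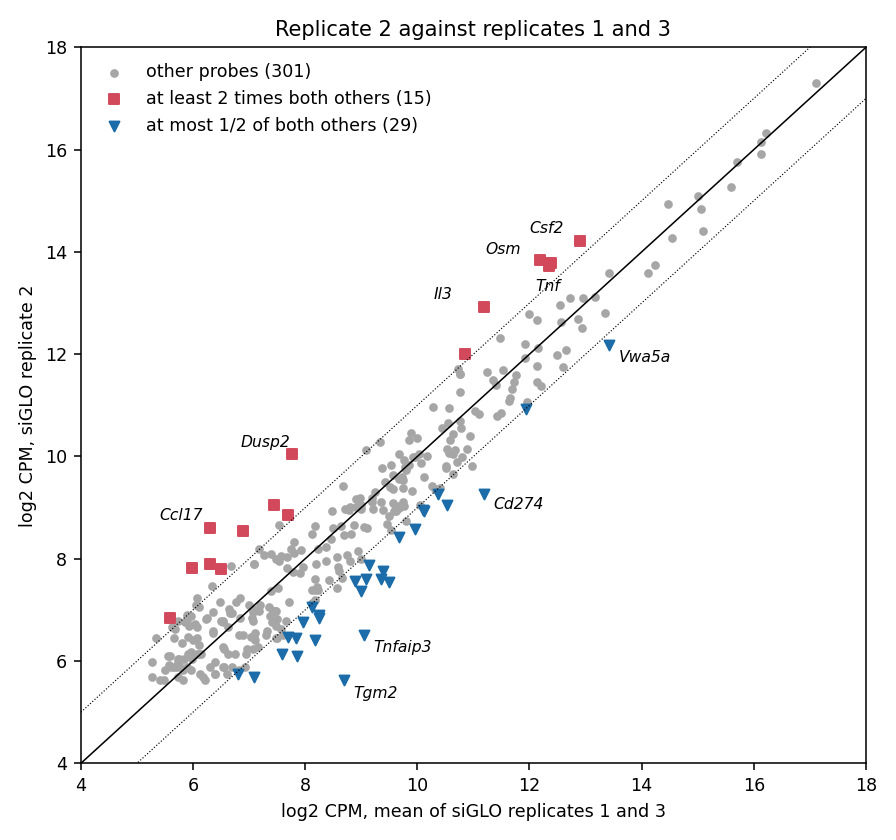
Level of each of the 345 probes above the floor in all 3 libraries in siGLO replicate 2 (y axis, log2 CPM) against the mean of replicates 1 and 3 (x axis, log2 CPM), with the line of equality and dotted lines at 2-fold. Red squares are the 15 probes at least 2 times both other libraries and blue triangles the 29 at most 1/2 of both.

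Several cytokines were among the transcripts higher in replicate 2. Tnf stood at 14043 CPM in replicate 2, against 5233 and 5497 CPM in replicates 1 and 3, which is 2.62 times their mean. Osm was 3.16 times the mean of the others (14722 CPM, against 5163 and 4162), Lif 2.61 times, Csf2 2.49 times, Il3 3.35 times and Il4 2.23 times. These were 6 of the 25 cytokines above the floor in all 3 libraries, against 15 of the 345 probes (4.35%). In 2 of the 25 replicate 2 was instead at most 1/2 of both others, namely Vegfc, a lymphatic growth factor (80 counts, against 431 and 450), and Areg, an EGF receptor ligand (29, against 112 and 167). Il13 and Il6 did not share this pattern. Il13 had 34843 CPM in replicate 2, against 31938 and 33891 CPM in replicates 1 and 3, and Il6 had 29195 CPM, against 31740 and 36582. The largest ratios among the 15 were those of Ccl17, a chemokine ligand of Ccr4 (166 counts in replicate 2, against 44 and 52, or 4.92 times on CPM), and Dusp2, a MAP kinase phosphatase (448, against 157 and 111, or 4.86 times).

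Other transcripts were lower in replicate 2. Tgm2, a transglutaminase, had 21 counts there, against 306 and 205 in replicates 1 and 3, and the others averaged 8.35 times its CPM. The 21 counts were just above the floor of 20.1 in replicate 2, so the size of this ratio is uncertain. Tnfaip3, which encodes the NF-kB feedback inhibitor A20, had 39 counts, against 254 and 379, or 5.76 times. Cd274, which encodes PD-L1, had 263 counts, against 1418 and 1427, and Vwa5a 1989, against 6982 and 6370. Kit (263, against 931 and 696 counts) and Gata1 (46, against 163 and 144 counts) were in the same set. Over the NF-kB list replicate 2 was the lowest library for 11 of 14 detected genes and the highest for 0 on CPM, against 50.1% lowest and 34.2% highest over the 345 probes. The IgE receptor signalling list (lowest for 8 of 11) and the integrin list (5 of 6) were tilted the same way. The NF-kB count moved to 7 lowest and 2 highest when libraries were scaled on the positive controls. On that scaling the integrin list was lowest for 4 of 6 and the IgE receptor list still for 8 of 11. The shares over the 345 probes were taken on CPM only, so these counts have no share beside them. The 7 detected cell cycle genes were all highest in replicate 2 under each of the 5 scalings of the counts tried, and the chemokine receptors were highest there for 6 of 7 on CPM and for 6 or 7 of 7 under the other scalings.

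The differences of replicate 2 were present in the counts and not in the log2 table that the authors deposited for the same libraries. Over the 310 endogenous probes of that table, the median absolute difference of replicate 2 from the mean of replicates 1 and 3 was 0.12 on the log2 scale, against 0.54 in CPM. Of the probes apart in replicate 2, the table lists 9 of the 15 higher ones and all 29 lower ones, and none was 2-fold apart from both other libraries in it. Csf2 had log2 values of 13.31, 13.26 and 13.55 in replicates 1, 2 and 3, Tnf 12.66, 12.99 and 12.99, and Osm 12.69, 12.69 and 12.80. Tgm2 had 7.76, 7.69 and 7.55 and Tnfaip3 8.21, 8.21 and 8.10. How the table was derived from the counts is not stated in these sources, and its part in this difference was not tested. Statements on replicate 2 therefore hold for the counts.

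At the other end, some transcripts varied little on CPM. Among the 268 detected probes with at least 100 CPM, the lowest CVs were those of Gem, a small GTPase (2.31%), Arf6, a regulator of membrane traffic (2.32%), Map2k2 (2.48%), the chaperone Calr (2.54%) and Csf1 (2.55%). Tapbp, C5ar1, Socs2, Ski and Fcer1a followed, at 3.33% to 4.01%. For the less abundant of these a low CV over 3 libraries says little, since counting alone gives 10.6% for Map2k2, 11.5% for Ski, 7.38% for Tapbp, 4.93% for Socs2 and 4.22% for Gem. For Arf6, Calr, Csf1, C5ar1 and Fcer1a the counting CV was lower than the measured one (0.588% for Fcer1a). The low CVs hold for CPM. On CPM, replicate 2 differed from the mean of replicates 1 and 3 by -0.10 (Ski) to 0.07 (Fcer1a) on the log2 scale for these 10 genes. Scaled on the positive controls, it differed by 0.13 (Ski) to 0.29 (Calr). The 10 highest CVs ran to 98.4% for Ccl17, and all 10 genes were apart in replicate 2, 8 of them higher and 2 lower (Tgm2 and Tnfaip3).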

How the data were processed

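RNA of the 3 siGLO samples was counted with the nCounter Myeloid Innate Immunity Panel on an nCounter SPRINT instrument. The authors deposited raw counts for 734 endogenous, 20 reference, 8 negative control and 6 positive control probes, which were used as deposited. Log2 values of 325 probes were deposited as well, by scaling steps not stated in these sources. They served to check the order of the most abundant probes and the differences of replicate 2. The methods name nSolver and Omics Playground.

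Shares and CPM were taken over the endogenous counts of each library (pandas 2.3.3, Python 3.11.15). TMM factors came from edgeR 4.0.16 in R 4.3.3, and no model was fitted. Without another group to compare, no p-value was computed. The spread is between 3 samples, each taken to be 1 mouse. The counting CV covers counting error only. The 2-fold rule for replicate 2 and the CV were tested on simulated data. The background call, the shares and the motif search were not.

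The members, the 21 gene lists and the motifs were chosen with earlier results of these data known. Named genes were the 5 markers, the 25 most abundant probes, up to 5 leading members and the defining markers per list, the 10 highest and 10 lowest CVs at 100 CPM or more, and the 5 probes nearest the floor on each side. Other genes named (receptors, list members at or below the floor, gene neighbours and members of the replicate 2 sets) were chosen after their values were seen. Promoters came from RefSeq (GRCm38.p6), using the first entry per symbol.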

Additional observations from a re-analysis of the deposited data

How the results depend on the processing

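With the floor lowered to 1 SD above the negative control mean, 158 probes were at or below it in all 3 libraries, against 243. The other 3 floors tried gave 227 to 290. The 10 most abundant probes held 57.3% of counts with reference genes in the denominator, against 58.9%. With no filter on low counts, 269 of 734 probes had a 2-fold range, against 99 of 345. Leaving out 1 replicate at a time gave 6 to 74 such probes and a median CV of 12.3% to 28.1%, with the lowest values of both without replicate 2. Subtracting the negative control mean, chosen after seeing the data, gave 131 probes and 28.4%. Of the other results, 79 list counts stayed within 1.5 times the main count and 5 did not. Of the named shares, 139 stayed within 1 SD and 1 did not, but many of these could not have moved, as said below. The list counts that moved were macrophage markers (4 above the floor, against 2, at 1 SD, at the highest negative control and with the SD over n). Interferon genes (2, against 4) and neutrophil markers (1, against 2) also moved, at 3 SD. The share that moved was that of Csf1 (0.883%, against 0.908%, with reference genes in the denominator). Leaving out 1 of 3 libraries cannot move a mean share by as much as 1 SD. The named shares from those settings could therefore not have moved, and they say nothing about stability. The deposited log2 table held the same 10 most abundant probes.

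The scaling sets how many probes count as apart in replicate 2. Scaling on the positive controls gave 27 higher and 11 lower, and TMM gave 23 and 22, against 15 and 29 on CPM. Tnf, Osm, Lif, Csf2, Il3, Il4, Ccl17 and Dusp2 stayed higher and Tgm2, Tnfaip3 and Cd274 lower under each of the 5 scalings of the counts. Of the probes that the deposited log2 table lists, 0 of 9 higher and 0 of 29 lower ones were still 2-fold apart in it. These comparisons and the wider GATA search were chosen after seeing the data. The median of all detected probes in replicate 2 lay between -0.13 and 0.09 (log2, against the mean of replicates 1 and 3) over the scalings.

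No paired analysis was possible because no groups were compared and each siGLO library is the only one of its replicate number. Low counts limit the receptor and marker results, and the lowest total, in replicate 2, limits what passed in all 3 libraries.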
